A study of Mus musculus with 18 samples.

Results

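The 14-3-3 proteins are small acidic adaptors that work as dimers. They bind serine or threonine residues after these have been phosphorylated, and in doing so they hold client proteins such as Raf kinases, BAD, FOXO factors and CDC25 phosphatases in place or away from their targets. Mammals have 7 such genes, Ywhab, Ywhae, Ywhag, Ywhah, Ywhaq, Ywhaz and Sfn, and the products of all but Sfn are abundant in brain. 5-Methylcytosine (m5C) is a methyl mark on cytosine that occurs in tRNA, rRNA and some mRNAs. Bisulfite turns unmethylated cytosine into uracil and leaves m5C as cytosine, so that a site is read as a cytosine that stayed unconverted.

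The m5C sites of the 6 genes Ywhae, Ywhaz, Ywhah, Ywhab, Ywhag and Ywhaq were taken as all listed sites in exons, on the same strand, of their mm10 RefSeq transcripts. They were 117 of the 18281 distinct sites found in exons of protein-coding transcripts, and of the 25890 distinct sites of the series. The genes were chosen by the numbers and scores of their m5C sites in these libraries, and Ywhah was among the transcripts that the study took from these libraries to a second assay, so their numbers of sites and scores are a description and were not tested. Sfn served only as a comparison.

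The labels name the material as primary cortical neurons of C57BL/6 mice, taken at day 18 of fetal life. The control group was not deprived. The OGD/R 1.5 h and OGD/R 3 h groups had been kept without oxygen and glucose for 1.5 h or 3 h and then returned to oxygen and normal medium for 24 h. Each group had 3 bisulfite libraries. The deposited lists give each site a score, namely the site caller's call score times 10, without decimals and never above 1000. This value takes in read coverage and methylation level together, and the lists do not give the depth behind a site. A site that is not listed may therefore lack methylation or lack reads, and more or fewer sites in an mRNA cannot be told apart from more or less of that mRNA. A listed site is a cytosine read as unconverted, and how completely bisulfite had converted the RNA was not tested.

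The libraries held 5907 to 6254 sites in control, 5423 to 5745 after OGD/R 1.5 h and 7266 to 7772 after OGD/R 3 h, of which 3856 to 4203, 3544 to 3781 and 4769 to 5302 were mRNA sites. In a supplementary table that was held in part, the coverage of single sites differed between the 3 libraries of control and of OGD/R 3 h by less than sampling noise, and the libraries were counted as 1 sample in every group. The spread between libraries is thus given as a description, and no p-value was computed. The markers did not match the label. Their lists were chosen with earlier results of these data known, so the counts are a description and not a test of the material. None of 17 neuron markers carried a site in any library, while 15 of 15 intestinal epithelium markers did, with 78 to 82 sites per library in control, 48 to 55 after OGD/R 1.5 h and 111 to 124 after OGD/R 3 h. Anpep, an aminopeptidase of the brush border, had 61 distinct sites, Apoa4, an intestinal apolipoprotein, had 54, and Muc13, an epithelial mucin, had 39. The 7 erythroid markers summed to 31 sites in each OGD/R 3 h library and the 8 neutrophil and phagocyte markers to 21, and both lists were at 0 in the other groups. These sites were in Hbb-bs and Hbb-bt, which encode beta globins, and in S100a8, S100a9 and Ngp, which encode granule and cytosolic proteins of neutrophils. Of 7 smooth muscle markers, 5 carried a site, with 7 to 15 sites per library in control, 8 to 10 after OGD/R 1.5 h and 8 to 12 after OGD/R 3 h, led by Myh11 with 26 distinct sites, Acta2 with 8, and Des and Tagln with 6 each. Of 7 astrocyte markers only Aldh1l1 carried a site, and of 7 oligodendrocyte markers none did. Over all coding genes, 12.1% carried a site in any library. In lists as short as the neuron, astrocyte and oligodendrocyte ones, 1 gene or none with a site is not far from that share. The part of these cell types in the 14-3-3 sites was not tested.

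The sequences below come from RefSeq mm10 and read from 5′ to 3′ along the mRNA. The first is the place of the highest scores in any 14-3-3 mRNA, in exon 2 of Ywhae (chr11:75751915-75751935, plus strand), with the cytosines listed in all 3 libraries of a group in capitals. The next is the densest place, in the 5′ untranslated region (UTR) of Ywhaz (chr15:36793591-36793620, minus strand), where capitals mark 10 cytosines listed in all OGD/R 3 h libraries. Then come codons 10 to 19 of Ywhae (chr11:75733055-75733084, plus) and of Ywhah (chr5:33019095-33019124, plus), where capitals mark cytosines listed at the same aligned base of both mRNAs. The groups that list such a base may differ between both mRNAs. Codons 230 to 238 of Ywhae (chr11:75759401-75759427, plus) and the aligned codons 227 to 235 of Ywhaz (chr15:36772751-36772777, minus) are given in the same way. The last are places in the 5′ UTR of Ywhab (chr2:163995265-163995285 and chr2:163995287-163995307, plus), each with a capital at the cytosine listed in all 3 libraries of OGD/R 3 h or of control.
Ywhae exon 2: ggaCgtggagCtgacagttga
Ywhaz 5′ UTR: aaaCCCCgtgtCtgCggagCggCtgtagCC
Ywhae codons 10 to 19: CaggCgaagctggcagagcaggCcgagcga
Ywhah codons 10 to 19: CgggCgcgactggcggagcaggCggagcgc
Ywhae codons 230 to 238: ctgtggaCctCagacatgCagggtgat
Ywhaz codons 227 to 235: ttgtggaCatCggataccCaaggagat
Ywhab, listed after OGD/R 3 h: gccgctgccgCcagccccgcc
Ywhab, listed in control: gaggagtgagCccgggaagga

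The isoforms carried very unequal numbers of sites. Ywhae had 69 distinct sites, Ywhaz 32, Ywhah 10, Ywhab 5, Ywhag 1 and Ywhaq none. Of the cytosines in each mRNA, 15.4% were listed at least once in Ywhae, 3.69% in Ywhaz, 2.34% in Ywhah, 0.786% in Ywhab and 0.105% in Ywhag. The coding sequence of Ywhae was the most densely covered region, with 54 of 150 cytosines listed, or 36.0%. A site in any library was found in 12.1% of all coding genes, and Ywhae ranked 21st by number of sites among the 2630 genes that had one, Ywhaz 94th and Ywhah 434th. None of the genes had a listed site in an intron or on the opposite strand.

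Over the 6 genes, control replicates 1, 2 and 3 listed 19, 22 and 25 sites, OGD/R 1.5 h replicates 27, 24 and 33, and OGD/R 3 h replicates 51, 37 and 45. Every OGD/R 3 h library thus held more than every library of the other groups, whereas OGD/R 1.5 h and control overlapped. Per 1000 mRNA sites, the libraries gave 4.80, 5.23 and 6.48 in control, 7.62, 6.66 and 8.73 after OGD/R 1.5 h and 9.62, 7.76 and 9.41 after OGD/R 3 h. The means were 5.50 ± 0.876, 7.67 ± 1.03 and 8.93 ± 1.02 (mean ± SD, n = 3 libraries). On this scale both OGD/R groups lay above control, and it was OGD/R 1.5 h and OGD/R 3 h that overlapped. With a score of at least 10 the excess of OGD/R 1.5 h over control was gone, at 5.73 against 5.83. The sum hides isoforms that went in opposite directions. Ywhae and Ywhaz listed more sites in every OGD/R 3 h library than in every control library, which held for 18.2% of the coding genes with a site in either group. Ywhah listed fewer in every OGD/R 3 h library, which held for 18.8%. For OGD/R 1.5 h against control, the same isoforms stood apart in the same directions, with 8.42% of genes higher and 15.3% lower. For Ywhaz this came from coding sites whose surrounding bases also stand elsewhere in the genome. Its 5′ UTR sites, which have no such copy, numbered 2, 1 and 1 in control and 2, 0 and 1 after OGD/R 1.5 h. Between OGD/R 3 h and OGD/R 1.5 h, only Ywhaz stood apart, with more sites after 3 h, as did 19.6% of genes, while 13.4% of genes and no 14-3-3 gene had fewer. Each pair of these comparisons shares the libraries of a group.

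**Figure D1:**
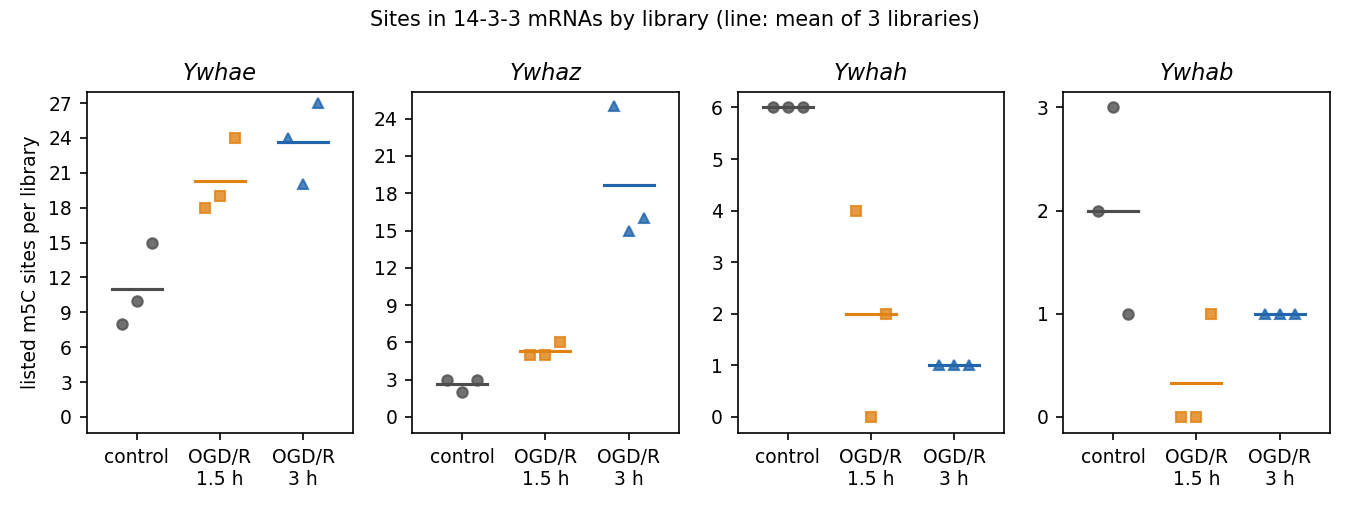
Number of listed m5C sites per library (y axis) in Ywhae, Ywhaz, Ywhah and Ywhab by group (x axis), with 1 point per library and a line at the mean of 3 libraries. Ywhaz had most sites after OGD/R 3 h, the Ywhae libraries of both OGD/R groups overlapped above control, and Ywhah had 6 sites in each control library and 1 in each OGD/R 3 h library.

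Ywhae encodes 14-3-3 epsilon, which binds phosphorylated NDEL1 and is needed for the migration of cortical neurons. Its mRNA carried 8, 10 and 15 sites in the control libraries, 18, 19 and 24 after OGD/R 1.5 h and 24, 20 and 27 after OGD/R 3 h. The union of the libraries came to 21, 41 and 40 sites. Per 1000 mRNA sites, the mean was 2.76 ± 0.993 in control, 5.57 ± 0.683 after OGD/R 1.5 h and 4.79 ± 0.762 after OGD/R 3 h (SD, n = 3 libraries), and the OGD/R groups overlapped. Control rested on replicate 3, without which its union was 13. All groups shared 6 sites, or 8.7%, against 3.68% of all mRNA sites. Found only after OGD/R 3 h were 20 sites (29%, against 33.2% of all mRNA sites), only after OGD/R 1.5 h 18 (26.1%, against 24.0%) and only in control 4 (5.80%, against 23.5%). A further 10 (14.5%, against 4.75%) were common to both OGD/R groups and absent from control.

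Of the 69 Ywhae sites, 54 lay in the coding sequence, 11 in the 5′ UTR and 4 in the 3′ UTR. They were spread over exons 1, 2, 4, 5 and 6 of 6, with 22, 14, 9, 17 and 7 sites, and exon 3 had none. The exons differed between the groups. The coding part of exon 1 listed no site in any control library, 2, 5 and 3 sites after OGD/R 1.5 h and 5, 4 and 7 after OGD/R 3 h. In exon 2 the order was another one, with 3, 5 and 5 sites in control, 7, 7 and 9 after OGD/R 1.5 h and 3, 4 and 2 after OGD/R 3 h. Exon 4 gave 0, 0 and 2 sites in control, 4, 3 and 6 after OGD/R 1.5 h and 1, 1 and 2 after OGD/R 3 h. Exon 5 gave 1, 3 and 3 sites in control, 4, 3 and 3 after OGD/R 1.5 h and 8, 8 and 11 after OGD/R 3 h. Exons 2 and 4 were thus fullest after OGD/R 1.5 h, and exon 5 after OGD/R 3 h. How many exons of other genes differ between the groups in this way was not computed, so these counts are a description.

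**Figure D2:**
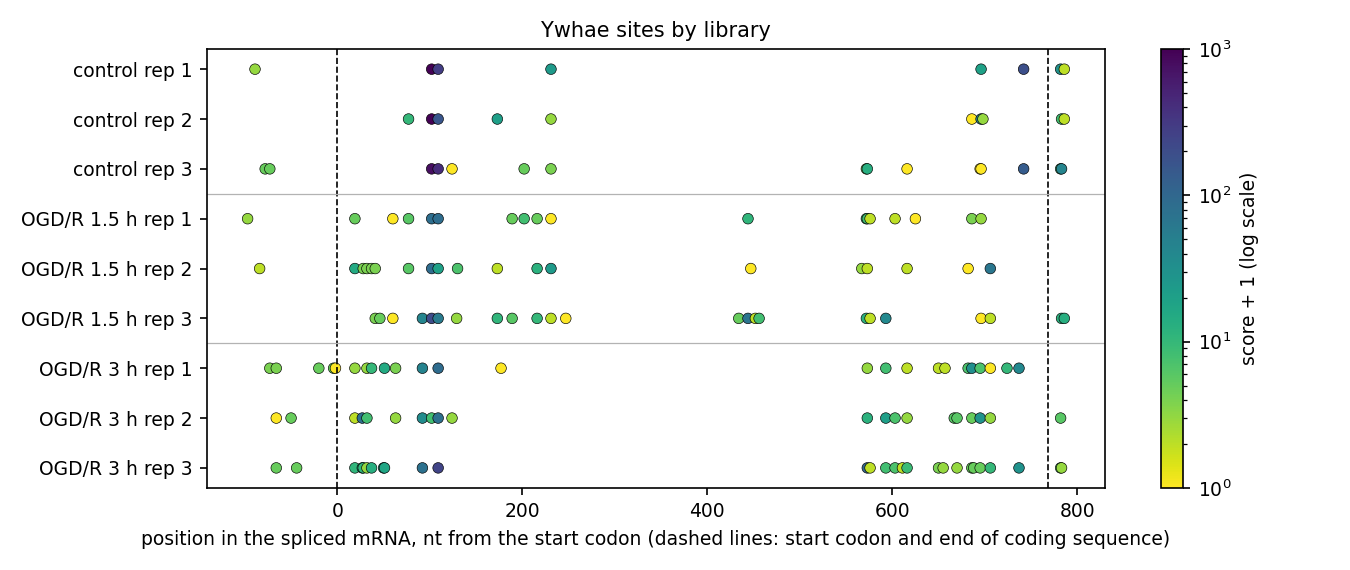
Ywhae sites along the spliced mRNA (x axis, nt from the start codon) in each of the 9 libraries (y axis), coloured by score + 1 on a log scale. The coding sites just after the start codon appear only in the OGD/R libraries, while the darkest points, of exon 2, are in control, and a single 3′ UTR site at 1474 nt, listed in OGD/R 1.5 h replicate 3 with a score of 193, lies outside the plot. After changing C to T, the 31 bases around that site have 28 copies elsewhere in the genome.

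The highest scores of all belonged to a pair of cytosines 7 nt apart in exon 2 of Ywhae. At codon 34 (chr11:75751918-75751918, a CG site), the scores were 1000, 1000 and 781 in control and 84, 88 and 205 after OGD/R 1.5 h, and the only OGD/R 3 h library to list it was replicate 2, with 7. Every control score was thus above every OGD/R score, and control replicates 1 and 2 stand at the cap. At codon 37 (chr11:75751925-75751925, a CHG site, where H is any base but G), the scores were 292, 158 and 426 in control, 86, 18 and 57 after OGD/R 1.5 h and 89, 80 and 246 after OGD/R 3 h. It was the only 14-3-3 site in all 9 libraries. Its control scores stood above those of OGD/R 1.5 h, and overlapped with those of OGD/R 3 h through replicate 3 of that group. Among mRNA sites listed in all 6 libraries of control and OGD/R 1.5 h, 13.6% had a lower score in every OGD/R 1.5 h library, and both Ywhae cytosines were among them, while 9.15% had a higher one and no 14-3-3 site was among those.

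**Figure D3:**
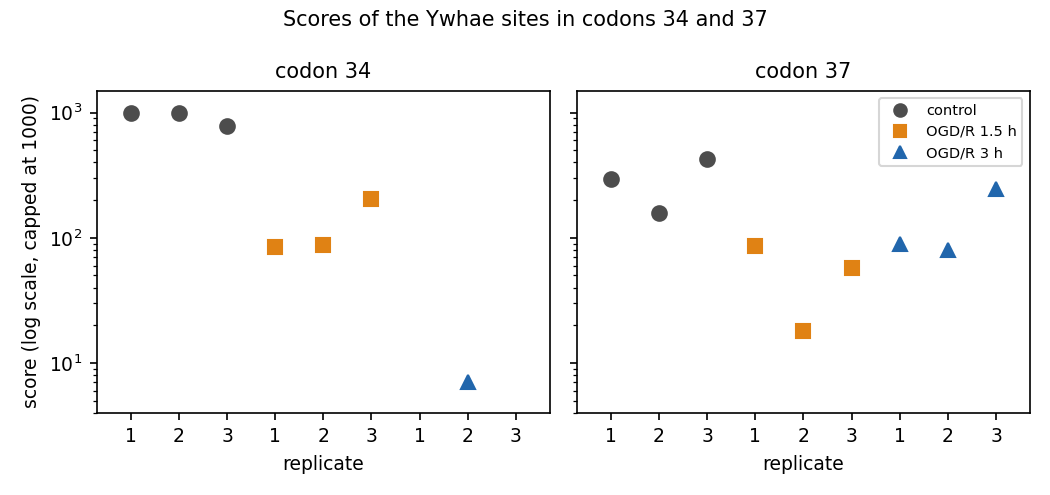
Scores (y axis, log scale, capped at 1000) of the Ywhae sites in codons 34 and 37 by library (x axis, replicates 1 to 3 of each group), where a missing point means that the site was not listed. At codon 34 the control libraries lie between 781 and 1000 and the only OGD/R 3 h point is at 7, whereas at codon 37 all 9 libraries have a point.

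A neighbouring cytosine in codon 31 behaved in another way. It was listed in no control library, in OGD/R 1.5 h replicate 3 with a score of 42, and in all OGD/R 3 h libraries with 44, 35 and 76. Most other recurrent Ywhae sites had low scores. In exon 1, codon 7 was listed with 4 and 14 in replicates 1 and 2 of OGD/R 1.5 h and with 2, 1 and 10 after OGD/R 3 h, and codon 11 with 3 in OGD/R 1.5 h replicate 2 and with 2, 7 and 2 after OGD/R 3 h. The 5′ UTR site 66 nt before the start codon scored 3, 0 and 4 after OGD/R 3 h. None of these 4 was listed in control.

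Later in exon 2, codon 72 was found only after OGD/R 1.5 h, with scores of 4, 11 and 9. Codon 77 gave 23, 2 and 3 in control and 0, 23 and 1 after OGD/R 1.5 h, so that these groups overlapped, and was not listed after OGD/R 3 h. In exon 4, codon 191 at its last base gave 12 in control replicate 3, 7 and 1 in OGD/R 1.5 h replicates 1 and 2, and 2, 11 and 101 after OGD/R 3 h. The OGD/R 3 h libraries alone thus spanned from 2 to 101 at this base.

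In exon 5, codon 198 scored 38 in OGD/R 1.5 h replicate 3 and 7, 20 and 7 after OGD/R 3 h. Codon 206 scored 0 in control replicate 3, 1 in OGD/R 1.5 h replicate 2 and 1, 2 and 8 after OGD/R 3 h. Codon 229 scored 0 in control replicate 2, 3 in OGD/R 1.5 h replicate 1 and 32, 4 and 4 after OGD/R 3 h. All 3 sites were complete only in the longer deprivation. Within codon 232 the neighbouring cytosines shared only control replicate 3. Its second base scored 0 in control replicate 3 and 6, 28 and 4 after OGD/R 3 h. Its last base scored 18, 39 and 0 in control, and 2 and 0 in OGD/R 1.5 h replicates 1 and 3, and was not listed after OGD/R 3 h. Codon 236 scored 65 and 1 in OGD/R 1.5 h replicates 2 and 3 and 0, 2 and 9 after OGD/R 3 h. The 54 Ywhae sites that no group listed in all 3 libraries had a median score of 4, and 29 of them were seen in 1 library.

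Ywhaz encodes 14-3-3 zeta, a partner of Raf kinases and a common reference gene in expression assays. It had 3, 2 and 3 sites in control, 5, 5 and 6 after OGD/R 1.5 h and 25, 15 and 16 after OGD/R 3 h, with no overlap between any of the groups. Control and OGD/R 1.5 h did overlap, at 2, 1 and 1 against 2, 0 and 1, once sites with a copy elsewhere in the genome were left out. The union of all Ywhaz sites came to 5, 8 and 28, and without replicate 1 of the group to 3 in control and 17 after OGD/R 3 h. Of its 32 sites, 23 (71.9%) were found only after OGD/R 3 h, where 33.2% of all mRNA sites were, 2 (6.25%) only after OGD/R 1.5 h, where 24.0% were, and none only in control, where 23.5% were. They fell into 12 sites of the 5′ UTR, 9 of the coding sequence and 11 of the 3′ UTR, and none lay within 100 nt of the start codon. Each of these regions had a pattern of its own.

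The 5′ UTR sites formed a stretch of 37 nt in exon 2 of 7 (chr15:36793581-36793617, minus strand), from 150 to 114 nt before the start codon. This exon is noncoding and is held by 3 of the 6 RefSeq transcripts of Ywhaz. All 12 of the 12 cytosines of the stretch were listed in each OGD/R 3 h library, against 2, 1 and 1 in control and 2, 0 and 1 after OGD/R 1.5 h. Whether bisulfite had fully converted the unmethylated cytosines of this stretch was not tested. The scores after OGD/R 3 h ran from 36 to 359 in replicate 1, with a median of 141, from 41 to 298 in replicate 2, with a median of 115, and from 22 to 278 in replicate 3, with a median of 52.5. The only cytosine also listed in all control libraries, 125 nt before the start codon, scored 28, 21 and 15 there, 8 and 9 in OGD/R 1.5 h replicates 1 and 3, and 137, 79 and 61 after OGD/R 3 h. All OGD/R 3 h scores at this base were above all control scores, which held for 10.7% of the mRNA sites listed in all 6 libraries.

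The context of these cytosines was mixed, with CG, CHG and CHH sites (the last having no G in either of the next positions) side by side, as the capitals in the Ywhaz sequence show. Runs of at least 12 neighbouring cytosines of an mRNA, each listed in all 3 libraries of a group, were rare. There were 8 such runs in 7 genes after OGD/R 3 h, including that of Ywhaz, and 2 in each of the other groups. The longest held 30 cytosines after OGD/R 3 h, 16 in control and 18 after OGD/R 1.5 h. No other 14-3-3 mRNA had a run longer than 2. None of the 12 sites had a copy of its surrounding 31 bases elsewhere in the genome.

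**Figure D4:**
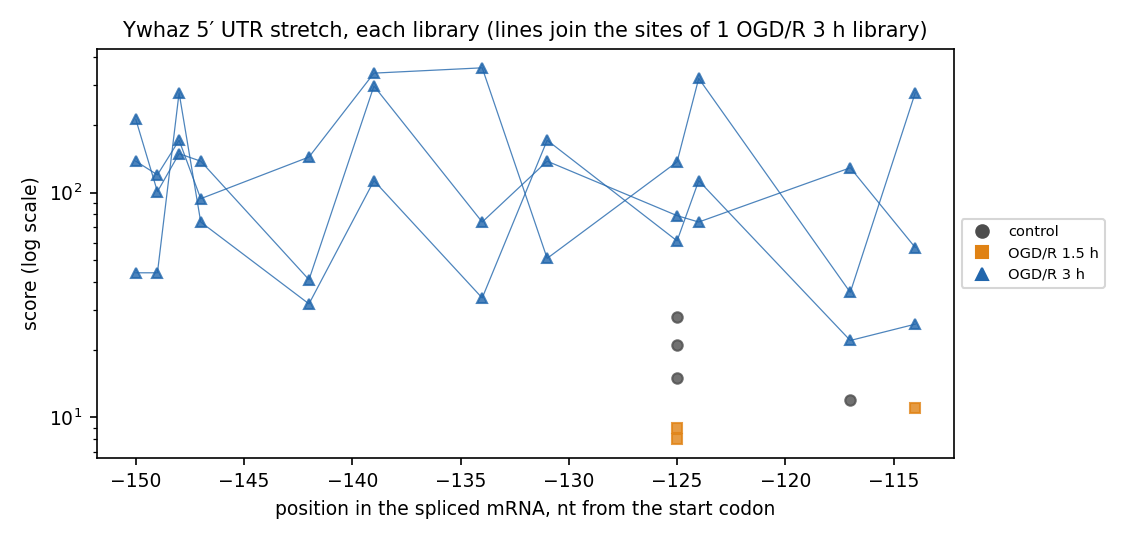
Scores (y axis, log scale) of the 12 Ywhaz 5′ UTR cytosines against their position in the spliced mRNA (x axis, nt from the start codon), with 1 point per listed site and library and a line for each OGD/R 3 h library. The OGD/R 3 h points lie between 22 and 359, while control and OGD/R 1.5 h points are few and lie between 8 and 28.

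The coding and 3′ UTR sites of Ywhaz were less secure. For 20 of its 32 sites, namely all those outside the 5′ UTR, the 31 bases around the site also stood elsewhere in the genome, so that the reads behind them may come from other loci. At the end of the coding sequence, a stretch of 31 nt held 7 cytosines that were all listed at least once, with 1, 1 and 2 sites in control, 3, 5 and 5 after OGD/R 1.5 h and 1, 2 and 2 after OGD/R 3 h. Here OGD/R 1.5 h held most, unlike in the 5′ UTR. The first base of codon 233 scored 14, 15 and 8 after OGD/R 1.5 h and 2, 1 and 6 after OGD/R 3 h, with no overlap, as in 15.3% of sites listed in all 6 libraries, and was not listed in control. Codon 229 was listed only after OGD/R 1.5 h, with 2, 1 and 28. In exon 3, codon 54 was listed only after OGD/R 3 h, with 20, 4 and 3.

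In the 3′ UTR, 10 sites were listed in OGD/R 3 h replicate 1, none in replicate 2 and 1 in replicate 3, and none in any other library. The higher total of replicate 1 came from this stretch of 97 nt. With only sites that have no such copy, Ywhaz had 2 sites in control, 2 after OGD/R 1.5 h and 12 after OGD/R 3 h in the union of libraries, an alternative chosen after the data had been seen.

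Ywhah encodes 14-3-3 eta, a form enriched in brain. It ran opposite to Ywhae and Ywhaz, with 6, 6 and 6 sites in control, 4, 0 and 2 after OGD/R 1.5 h and 1, 1 and 1 after OGD/R 3 h. Of 10 distinct sites, 9 were in the coding sequence, 8 of these in exon 1 between codons 4 and 24, and 4 (40.0%) were found only in control, where 23.5% of all mRNA sites were. None of the 10 was found only after OGD/R 3 h, where 33.2% were. The union after OGD/R 1.5 h was 6 sites, and 2 without replicate 1. By context, 6 were CG, 3 CHG and 1 CHH.

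The 5 Ywhah sites listed in every control library lay in codons 8, 10, 11, 17 and 20. Codon 8 scored 11, 1 and 2 in control and was listed nowhere else. Codon 11 scored 11, 44 and 31 in control and 23 in OGD/R 1.5 h replicate 1. Codon 17 scored 7, 38 and 44, and codon 20 scored 9, 7 and 22, and neither was listed outside control. Codon 10 alone remained listed in every OGD/R 3 h library, with 2, 4 and 3 against 10, 8 and 10 in control and 7 in OGD/R 1.5 h replicate 1. Its OGD/R 3 h scores were all below its control scores, which held for 15.4% of the mRNA sites listed in all 6 libraries. The scores of Ywhah stayed far below those of exon 2 of Ywhae, and its highest was 57, at codon 12 in control replicate 2 only.

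The exon 1 sites of Ywhae and Ywhah could be laid over each other, since their codons 10 to 20 align without a shift. Both exons encode the amino-terminal end of the protein, a part of the region through which 14-3-3 proteins form dimers. In Ywhae, 11 coding sites of exon 1 stood between codons 7 and 21, all of them absent from control. In exon 1 of Ywhah, 6 sites per library stood in control and 1 per library after OGD/R 3 h. The same base was listed in both mRNAs at codons 10, 11, 17 and 20. Of 11 aligned cytosines that both mRNAs have in exon 1, Ywhae listed 9 and Ywhah 5. Of these 5 Ywhah bases, 4 were listed in Ywhae, a share close to the 9 of 11 of all aligned cytosines. In control only Ywhah was listed at these bases. After OGD/R 3 h, codon 10 was listed in both mRNAs in replicate 3, with 10 in Ywhae and 3 in Ywhah. After OGD/R 1.5 h, codons 10 and 11 were listed in both mRNAs, in replicate 2 for Ywhae and in replicate 1 for Ywhah.

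**Figure D5:**
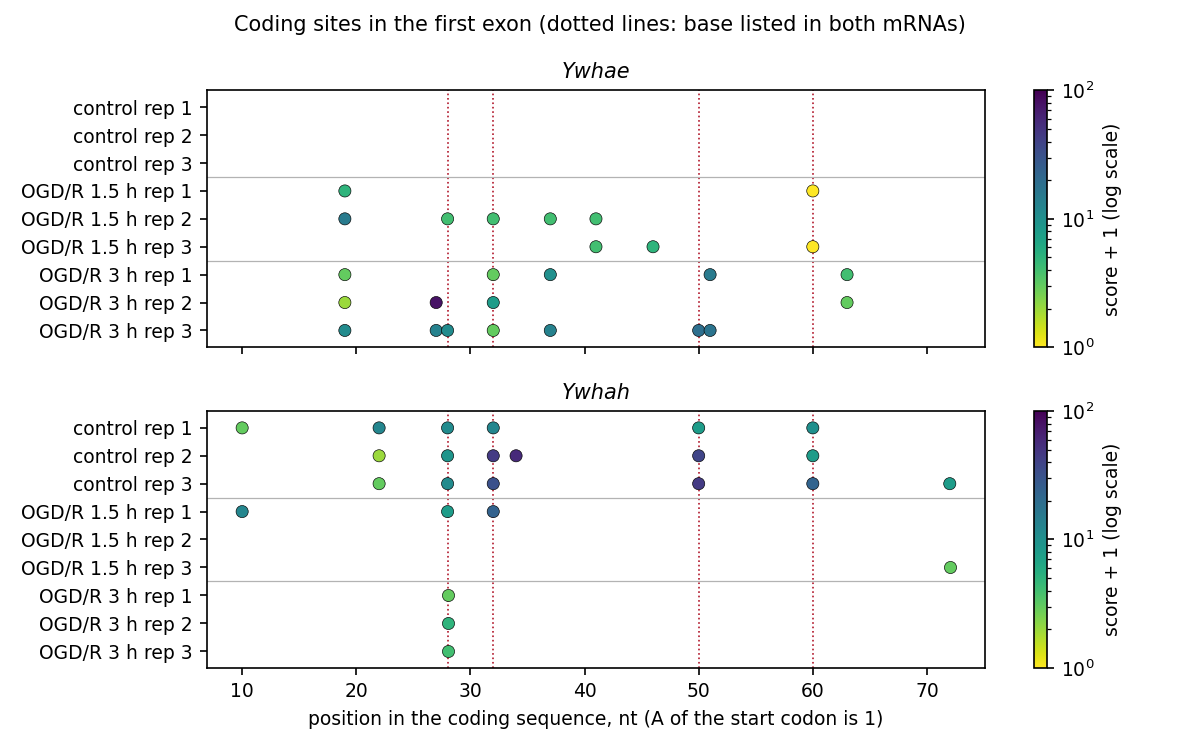
Coding sites in exon 1 of Ywhae (upper panel) and Ywhah (lower panel) by position in the coding sequence (x axis, nt, with the A of the start codon as 1) and library (y axis), coloured by score + 1 on a log scale, with dotted lines at the 4 bases listed in both. The Ywhae points lie in the OGD/R rows only, and most Ywhah points lie in the control rows.

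A second overlap joined the carboxy-terminal ends of Ywhae and Ywhaz. The same base was listed at codon 232 of Ywhae and 229 of Ywhaz, at 233 and 230, and at 236 and 233. Only the last of these bases was listed in both mRNAs within a group, namely after OGD/R 1.5 h and after OGD/R 3 h. At codon 232, Ywhae was listed in control and OGD/R 3 h, and at codon 233 in control only. Ywhaz was listed at the matching bases only after OGD/R 1.5 h. The 31 bases around each of these Ywhaz sites also stand elsewhere in the genome, so their reads may come from other loci. Both mRNAs have 84 aligned cytosines in their coding sequences, of which Ywhae listed 28 and Ywhaz 4, and 3 bases were listed in both. Over the 6 genes, 11 pairs of sites lay at the same aligned residue and 7 of them at the same base. The proteins of the 6 genes were 63.9% to 87.0% identical over 15 pairs, and their coding sequences 61.7% to 79.0%.

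Ywhab, Ywhag and Ywhaq carried few sites. Ywhab encodes 14-3-3 beta, another partner of Raf kinases. It had 2, 3 and 1 sites in control, 0, 0 and 1 after OGD/R 1.5 h and 1, 1 and 1 after OGD/R 3 h, and the groups overlapped or touched. Of its 5 sites, 4 were in the 5′ UTR. The site 72 nt before the start codon was listed only in control, with 3, 23 and 3, and the site 94 nt before it only after OGD/R 3 h, with 1, 0 and 4. The highest Ywhab score, 104, was that of a coding site in codon 81 in control replicate 2 alone. Ywhag, which encodes 14-3-3 gamma, had a single 3′ UTR site in control replicate 2, with a score of 16. Ywhaq, which encodes 14-3-3 theta, had none in any library, although its mRNA has 169 coding cytosines. Without the depth of its bases this says nothing of whether it was methylated.

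Taking the 117 sites as a whole, 28 (23.9%) lay in 5′ UTRs, 73 (62.4%) in coding sequences and 16 (13.7%) in 3′ UTRs, against 20.2%, 70.5% and 9.32% of all mRNA sites. Within 100 nt of a start codon there were 37 (31.6%), against 23.4% of all mRNA sites. Of the 37, 24 were in Ywhae, 9 in Ywhah and 4 in Ywhab. Sites outside the 14-3-3 genes were placed on the longest transcript that holds them, so the shares of all mRNA sites follow another rule. By context, 29 sites were CG, 44 CHG and 44 CHH, or 24.8%, 37.6% and 37.6%, against 22.4%, 37.9% and 39.6%. The coding sites were spread evenly over the codon, with 25, 24 and 24 at the first, second and last base. The motif CNGGG, with the methylated cytosine first, which is known around NSUN2 sites, was found at 2 sites (1.71%), both in Ywhae, against 3.28% of all mRNA sites. The motif CTCCA, known from NSUN6 sites, was found at none, against 0.416%. Both were searched on the strand of the site only. Of all listed calls, 60.4% had a neighbouring listed site at most 10 nt away within one and the same library, against 46.6% for mRNA sites in general.

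Sites differed widely in how often they were listed. Of the 117 sites, 48 (41.0%) were listed in 1 of 9 libraries, against 49.1% of all mRNA sites, and 37 (31.6%) in all 3 libraries of a group, against 27.5%. These were 11 sites in control, 6 after OGD/R 1.5 h and 27 after OGD/R 3 h. Present in all OGD/R 3 h libraries and in no control library were 19 of 95 sites (12 in Ywhaz, 6 in Ywhae and 1 in Ywhab), where 14.9% of all mRNA sites were. The reverse held for 7 of 95 (4 in Ywhah, 2 in Ywhae and 1 in Ywhab), where 9.92% were. Listed in all OGD/R 1.5 h libraries and in no control library were 3 of 73 sites (6.18% of all mRNA sites), and the reverse held for 4 of 73 (10.2%). Listed in all OGD/R 1.5 h libraries and in no OGD/R 3 h library were 3 of 105 (6.58%), and the reverse held for 14 of 105 (15.2%), 11 of them in Ywhaz. A library shared 38.2% to 41.9% of its 14-3-3 sites with another of its group in control, 21.4% to 30.4% after OGD/R 1.5 h and 46.7% to 60.8% after OGD/R 3 h, each as a share of the union of both. Between groups the share was 5.80% to 23.8%. For all mRNA sites it was 6.60% to 10.8% between groups and 29.6% to 45.1% within them.

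The median score of the 14-3-3 sites was 11, 16.5 and 7 in the control libraries, 5.0, 4.0 and 8.0 after OGD/R 1.5 h and 4.0, 7.0 and 10.0 after OGD/R 3 h. The groups overlapped. A score under 10 was found in 47.0% of the 66 control calls, 65.5% of the 84 OGD/R 1.5 h calls and 54.1% of the 133 OGD/R 3 h calls. Scores of 100 or more were found in 9, 2 and 22 calls. In control 8 of the 9 were in Ywhae, whereas after OGD/R 3 h 20 of the 22 were in Ywhaz. Shares of calls under 10 or at 100 or more are not given for all mRNA sites. High scores were also more frequent in the series as a whole after OGD/R 3 h. The mRNA sites at the score cap numbered 60, 71 and 66 in the control libraries. They numbered 64, 62 and 56 after OGD/R 1.5 h and 184, 181 and 182 after OGD/R 3 h. A rise particular to the 14-3-3 mRNAs can thus not be read from these calls.

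Of 50 genes whose proteins are known 14-3-3 partners, 11 carried a site in control, 8 after OGD/R 1.5 h and 3 after OGD/R 3 h, where 8.41%, 8.09% and 6.7% of all coding genes did. Their summed sites came to 12 to 21 per library in control, 5 to 13 after OGD/R 1.5 h and 4 to 9 after OGD/R 3 h. Stk11, a kinase upstream of AMPK, had 21 distinct sites, with 5, 7 and 6 in the control libraries and 5, 1 and 2 after OGD/R 3 h. Cdc25a, a phosphatase that drives the cell cycle, had 7, with 1, 3 and 4 in control and none after OGD/R 3 h. Cfl1, the actin-severing protein cofilin, also had 7, with 1, 1 and 1 in control, none after OGD/R 1.5 h and 3, 2 and 4 after OGD/R 3 h. Sfn, the epithelial 14-3-3 sigma, had 6 sites, all in its 3′ UTR, with 0, 2 and 2 in control, 1, 2 and 0 after OGD/R 1.5 h and 2, 2 and 1 after OGD/R 3 h. For 3 of its 6 sites, the 31 bases around the site also stand elsewhere in the genome.

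Among 1016 coding genes with at least 5 distinct sites, the numbers of sites over the 9 libraries, as log2(sites + 1), were most like those of Ywhah in Eif3b (Pearson r = 0.94), Dynll2 (0.94) and Dst (0.93). They encode a subunit of an initiation factor, a dynein light chain and a cytoskeletal linker. For Ywhaz they were H2-D1 (0.99), a class I MHC chain, Calr (0.98), the chaperone calreticulin, and Tmem38b (0.97), a cation channel of the endoplasmic reticulum. The value r does not take in the size of a change. From control to OGD/R 3 h, Tmem38b rose only from 16, 16 and 17 sites to 23, 23 and 23. Calr rose from 1, 1 and 1 to 21, 21 and 19, and H2-D1 from 2, 1 and 2 to 16, 13 and 16. Dynll2 fell only from 5, 5 and 5 to 3, 3 and 4, while Eif3b and Dst fell to none. The 9 points share the grouping and the depth of their libraries, and the values are a description.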

How the data were processed

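RNA labelled as that of cortical neurons was depleted of rRNA, treated with bisulfite and sequenced in 9 libraries. The 9 mock libraries were not analysed here. According to the methods and the submitters' processing notes, the authors used CASAVA 1.8, trimmed reads with cutadapt 1.9.3, aligned those of bisulfite libraries to mm10 with meRanGh and those of input libraries with STAR, and called sites with meRanCall, keeping those with a coverage of 10 or more and a level of 0.1 or more. The deposited value of each site is a score, which the authors did not normalize for depth. How the mock libraries entered the calls is not given in the sources used here.

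Sites were placed on RefSeq transcripts of mm10 (GRCm38.p6) with Python 3.11.15 and numpy 2.4.6, and positions are counted from 1. One RefSeq Select transcript per gene gave regions, exons and codons of the 7 genes. Other mRNA sites were placed on the longest curated transcript that holds them, or on the longest predicted one where no curated one does. The next bases were read from the genome, and at 1 of 123 sites of the 7 genes they differ from those of the spliced mRNA. Copies were sought on both strands of the genome as 31 bases around a site, exactly and after changing C to T (numba 0.67.0). Proteins were aligned with biopython 1.88, and figures drawn with matplotlib 3.10.9. Position mapping was tested on simulated positions.

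The 6 genes, the partner and marker lists and the named genes were chosen with earlier results of these data known. Named are the 6 genes and Sfn, the 3 genes with most sites of the partner and marker lists, the 3 genes most like Ywhah and Ywhaz, and every site listed in all 3 libraries of a group. Sites named outside this rule (scores of 193, 57, 104 and 16) were picked after their values were seen. The replicates' coverage, in the part of a supplementary table that was held, gave their count as 1 sample; none was held for OGD/R 1.5 h, which was treated alike. Intervals and tests were thus not computed. Alternatives were stricter recurrence, a score of at least 10, sites with no neighbour within 10 nt, curated transcripts, another summary of the score, shares over the union of libraries and each library left out.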

Additional observations from a re-analysis of the deposited data

How the results depend on the processing

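The number of sites depends on what counts as a site. In the union of the libraries the 6 genes had 39 sites in control, 56 after OGD/R 1.5 h and 70 after OGD/R 3 h. With sites listed in all 3 libraries the numbers were 11, 6 and 27, with at least 2 libraries 16, 22 and 36, with a score of at least 10 they were 22, 22 and 29, and with no other site within 10 nt 20, 30 and 29. OGD/R 3 h thus led in all of these settings but the last. Control held more than OGD/R 1.5 h only with sites listed in all 3 libraries, and both were equal with a score of at least 10. With a score of at least 10, the share per 1000 mRNA sites was 5.83 in control, 5.73 after OGD/R 1.5 h and 7.63 after OGD/R 3 h, so that OGD/R 1.5 h no longer exceeded control, and the cause was not tested. The mean library median of the score was 11.5, 5.67 and 7.0, and with sites listed in all 3 libraries it was 16.3, 14.7 and 32.3, so that OGD/R 3 h came first. The mean of log2(score + 1) in its place, back on the scale of the score, gave 13.7, 6.03 and 12.6, with control first. Without any 1 library the counts were 29 to 34 in control, 42 to 46 after OGD/R 1.5 h and 51 to 65 after OGD/R 3 h. Curated transcripts changed no count, and without sites that have a copy elsewhere, chosen after seeing the data, the counts were 36, 49 and 54. Of the single isoforms, Ywhae in control fell from 21 to 13 without replicate 3, Ywhaz in control from 5 to 3 and after OGD/R 3 h from 28 to 17 without replicate 1, Ywhah after OGD/R 1.5 h from 6 to 2 without replicate 1, and Ywhab in control from 4 to 2 without replicate 2, while the single sites of Ywhag in control and Ywhab after OGD/R 1.5 h rested on replicates 2 and 3. Ywhae with no neighbour within 10 nt had 9, 22 and 19 sites, and Ywhah had 2, 4 and 1, so that its highest count was then after OGD/R 1.5 h. No paired analysis was possible because no test was run on libraries counted as 1 sample per group. The lists give no depth, so a site that is not listed has no upper limit.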
